A study of Mus musculus with 16 samples.

Results

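The skeletal muscle miRNAs miR-1 (mmu-miR-1 on the array), miR-206 (mmu-miR-206), miR-133a (mmu-miR-133a) and miR-133b (mmu-miR-133b) were described in mouse dorsal skin, where they were picked out by these names. They are 4 of the 577 miRNAs on the array, and all 4 were detected on all 16 arrays, so each of them entered every test. The arrays were single-colour Agilent miRNA arrays of whole dorsal skin from hairless mice of the mixed background SKH1-C57/Bl6-SV129, all adult females according to the study's methods, with WT and KO littermates from several litters, lesion-free skin and sham-handled controls. WT mice were Ppard+/+ and KO mice Ppard-/-, which lack the nuclear receptor PPARβ/δ in every cell, so that an effect of genotype cannot be assigned to one cell type of the skin. Mice of both genotypes were either left non-irradiated or exposed repeatedly to UVB over 12 weeks, at 70 mJ/cm2 per exposure, which gave 4 groups of 4 arrays, called WT no UV, WT UV, KO no UV and KO UV. The methods give 4 animals for each group. The question behind the groups was how the loss of the receptor alters the miRNAs of skin under chronic UV.

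These miRNAs are often called myomiRs. A miRNA guides a silencing complex to messenger RNAs, mainly through its seed, a short stretch near its 5′ end. In striated muscle miR-1 and miR-133 are made together from shared transcripts under muscle transcription factors, and miR-1 is known for favouring differentiation of myoblasts whereas miR-133 is known for favouring their proliferation. miR-206 and miR-133b come from another shared cluster, and miR-206 is largely restricted to skeletal muscle, where it rises in regeneration and after loss of innervation. Keratinocytes and fibroblasts are not known as a main source of these miRNAs, whereas mouse skin has a thin sheet of striated muscle, the panniculus carnosus, under the dermis.

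The mature sequences of miR-206 and miR-133b are shown because they carry the seeds of both families: miR-1 has the seed of miR-206, and miR-133a that of miR-133b. Both sequences are those of RefSeq (build GRCm38.p6), they lie on the plus strand at chr1:20679055-20679076 for miR-206 and chr1:20682834-20682855 for miR-133b, and each has 22 bases. Capitals mark the seed, bases 2 to 8 counted from the 5′ end.
mmu-miR-206-3p: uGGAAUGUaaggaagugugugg
mmu-miR-133b-3p: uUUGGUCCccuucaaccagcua
miR-133a and miR-133b are close to identical, and miR-1 and miR-206 are closely related, so probes of one member may also have bound another and the values within a family are not fully independent.

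In the coordinates that the files give (build mm9), the probed part of miR-206 lay on chromosome 1 from 20669142 to 20669157 and that of miR-133b from 20672918 to 20672936, with 3.78 kb between their starts. Each member was measured by 2 probes with 10 spots each. No spot of a member was saturated on any array, and the scanner software put the error of a single value at 7.2% to 9.44% of the signal. Spots of 1 probe scattered more widely on KO UV replicate 4, where their SD was 63.4% of the mean for a probe of miR-1, 53.2% for one of miR-133a and 43.9% for one of miR-206. On the other 15 arrays it reached at most 22.7%.

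Several properties of the arrays bear on these results. The total signal ranged from 170979 to 395200 intensity units per array. Each slide held 1 irradiation state, so that UV and slide cannot be told apart. The local background was 63.3 to 65.8 units on the non-irradiated slide and 119 to 130 on the irradiated one, and 216 to 266 miRNAs were detected per array on the former against 184 to 206 on the latter. Among irradiated arrays every WT sample sat in row 1 and every KO sample in row 2, so genotype and row cannot be told apart there. Replicate 2 of WT no UV stood above the other arrays of its group for 3 of the 4 members, and results are given without it where it mattered. Since the arrays carry no probe for Ppard mRNA, genotypes rest on the labels. The keratinocyte miRNAs miR-203 and miR-205, which mark the labelled tissue, were detected on all 16 arrays.

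The signals before normalization gave the first view. For miR-1 the total gene signal was 10406, 21488, 7409 and 12731 units on the WT no UV arrays (replicates 1 to 4), and 22364, 33580, 39417 and 21086 on the KO no UV arrays. After irradiation it was 15002, 14010, 12448 and 16338 in WT, and 11045, 13519, 8788 and 9963 in KO. The KO no UV arrays were the brightest, and their lowest value fell just under the highest of WT no UV, which was replicate 2. The mean of miR-1 was 29112 ± 8872 units (SD, n = 4) for KO no UV against 13008 ± 6058 for WT no UV, and 10829 ± 2016 for KO UV against 14450 ± 1640 for WT UV.

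The signal of miR-206 was 618, 567, 358 and 571 units on the WT no UV arrays and 1544, 1712, 1165 and 886 on the KO no UV arrays. It was 881, 453, 462 and 461 units on the WT UV arrays and 645, 563, 528 and 345 on the KO UV arrays. All 4 KO no UV arrays lay above all 4 WT no UV arrays before normalization, and WT UV replicate 1 stood above the other arrays of its group at close to the lowest KO no UV value. The KO no UV arrays were also brighter as a whole, with total signals of 254694 to 395200 units against 170979 to 265981 in WT no UV. The share of all miRNAs with such a separation is not given here. After normalization the highest WT no UV and the lowest KO no UV value of miR-206 tied.

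miR-133a had 3391, 6764, 2054 and 3701 units in WT no UV and 6464, 10408, 12591 and 7347 in KO no UV. In irradiated skin it had 3201, 3052, 2702 and 3913 units in WT and 2220, 2830, 2153 and 2232 in KO. WT no UV replicate 2 reached into the KO no UV range, and the other 3 WT no UV arrays lay below it. miR-133b, the close relative of miR-133a, had 5721, 11636, 3591 and 6007 units in WT no UV against 11001, 17178, 20576 and 13025 in KO no UV. With UV it had 5823, 5530, 4833 and 6887 units in WT and 4193, 5016, 3915 and 4842 in KO. Within each of the 4 groups, the arrays stood in the same order for miR-133b as for miR-133a.

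**Figure D1:**
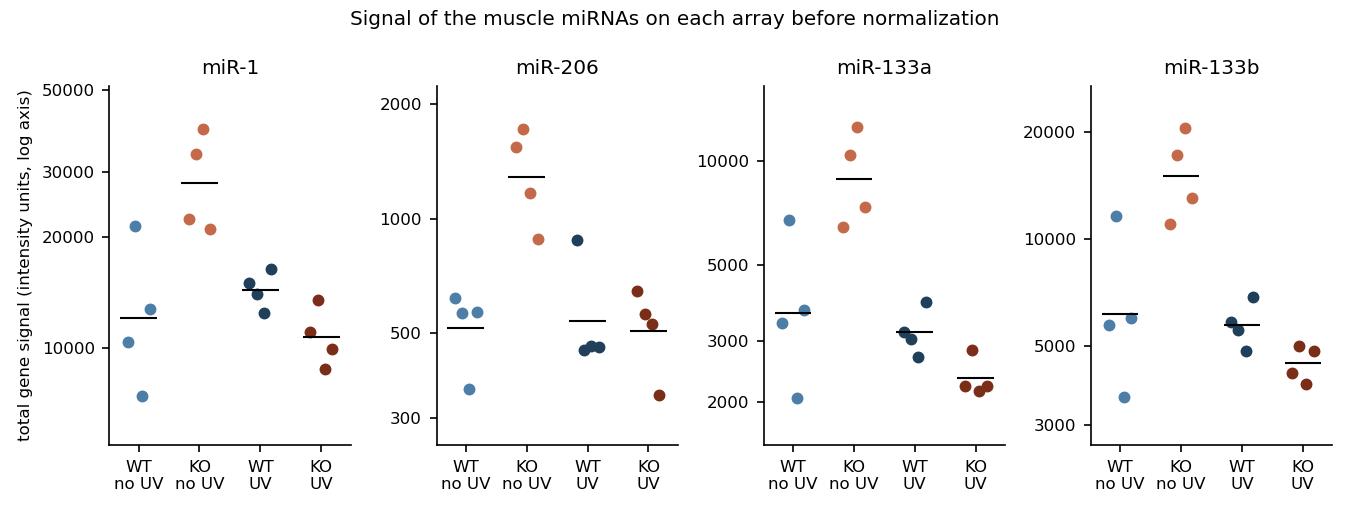
Total gene signal (intensity units, log axis) of miR-1, miR-206, miR-133a and miR-133b on each array before normalization, in the 4 groups of 4 arrays; points are arrays and lines are geometric means. KO no UV is highest for every member, with miR-1 between 21086 and 39417 units there against 8788 to 13519 in KO UV.

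Together the 4 miRNAs held a large part of the signal on every array. Their share of the total signal was 9.16%, 15.2%, 7.84% and 10.5% in WT no UV, and 16.2%, 15.9%, 21.3% and 13.8% in KO no UV. It was 8.63% to 9.78% in WT UV and 7.66% to 9.49% in KO UV. The KO no UV arrays held 4 of the 5 highest shares, and the remaining one was WT no UV replicate 2. In whole skin, fewer muscle cells and less of these miRNAs per cell cannot be told apart.

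**Figure D2:**
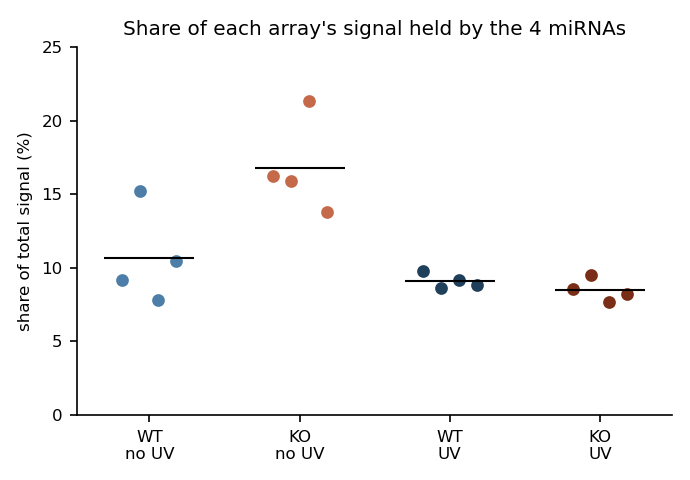
Share of the total signal of each array (%) held by the 4 muscle miRNAs together, by group; points are arrays (n = 4 per group) and lines are means. Irradiated arrays lie between 7.66% and 9.78%, whereas non-irradiated arrays spread from 7.84% to 21.3%.

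Differences between groups were tested after quantile normalization, on log2 values, in a limma fit across the 228 miRNAs that were detected on every array of 1 or more groups. Calls needed a Benjamini-Hochberg adjusted p under 0.05, adjusted over these 228. Quantile normalization gives each miRNA a value by its rank on the array, so a bright miRNA that keeps its rank keeps its value. miR-1 had the highest signal on all 4 KO no UV arrays, which also depends on its probes, and its normalized log2 level was therefore 14.59 on each of them, with no spread. Scaled to the 75th percentile, its SD on these arrays was 0.30. The standard errors and p of miR-1 in the quantile normalized fit may therefore be too small. miR-1 ranked from 1 to 4 on the other arrays.

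In KO skin, all 4 muscle miRNAs fell with UV. miR-133a was 2.38-fold lower, miR-133b 2.11-fold, miR-1 2.0-fold and miR-206 1.84-fold. The log2 differences were -1.25 ± 0.19 for miR-133a (standard error of the fit; limma adjusted p = 0.00125), -1.08 ± 0.17 for miR-133b (adjusted p = 0.00125), -1.0 ± 0.20 for miR-1 (adjusted p = 0.00477) and -0.88 ± 0.30 for miR-206 (adjusted p = 0.0431). Of all 228 miRNAs tested in this comparison, 29.8% were called in either direction and 11.4% were called lower, against 4 of 4 members. The members held places 3, 4, 5 and 7 from the lowest difference, and the median difference over all tested miRNAs was 0. For miR-1, miR-133a and miR-133b every irradiated KO array lay under every non-irradiated KO array, a separation in this direction that 8.33% of the tested miRNAs showed, and the exact permutation p was 0.0286, the smallest that 4 against 4 arrays can give. The groups of miR-206 overlapped (exact permutation p = 0.0571), because KO UV replicate 1 reached above KO no UV replicate 4.

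The call of miR-206 was the least secure. Leaving out one array at a time moved its log2 difference between -1.05 and -0.65, and only the fits without KO no UV replicate 4 (-1.05) or KO UV replicate 1 (-1.04) still called it, so that 6 of 8 lost the call. The difference was smallest without KO UV replicate 4, the array with the wide spot scatter. The other members were called without each of the arrays in turn. Of 17 other settings, 8 also lost it, with normexp background correction giving the smallest difference (-0.58, limma adjusted p = 0.389). Without normalization the median of all tested miRNAs was -0.48 in this comparison, and the members lay 0.86 to 1.44 below that median.

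In WT skin, none of the 4 members was called for UV minus none, where 16.2% of the 228 tested miRNAs were called. An unadjusted limma p under 0.05 was found for 75 of the 228 and for no member. The log2 difference was -0.07 for miR-1 (95% interval of the fit -0.49 to 0.36), -0.29 for miR-206 (-0.94 to 0.36), -0.28 for miR-133a (-0.71 to 0.14) and -0.18 for miR-133b (-0.55 to 0.18). Each interval still includes a difference of -0.49. The result for the miR-133 family depended on the normalization. With an invariant set of 83 miRNAs, miR-133a and miR-133b were called lower in irradiated WT skin at -0.69 (limma adjusted p = 0.0163) and -0.61 (adjusted p = 0.0255). With quantiles taken within each slide, they were called at -0.55 (limma adjusted p = 0.0485) and -0.60 (adjusted p = 0.00892). Since each slide held 1 irradiation state, that setting puts irradiated and non-irradiated arrays on no common scale. Its UV differences therefore keep any difference in intensity between the slides. The share of all miRNAs called with the invariant set or with quantiles within each slide is not given here. Scaled to the 75th percentile, 1 probe of miR-133a separated the irradiated from the non-irradiated WT arrays (-0.76, exact permutation p = 0.0286) and the other did not (-0.55, exact permutation p = 0.0857). Without normalization these probes gave -0.38 and -0.16. Without WT no UV replicate 2 the miR-1 difference was 0.17.

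**Figure D3:**
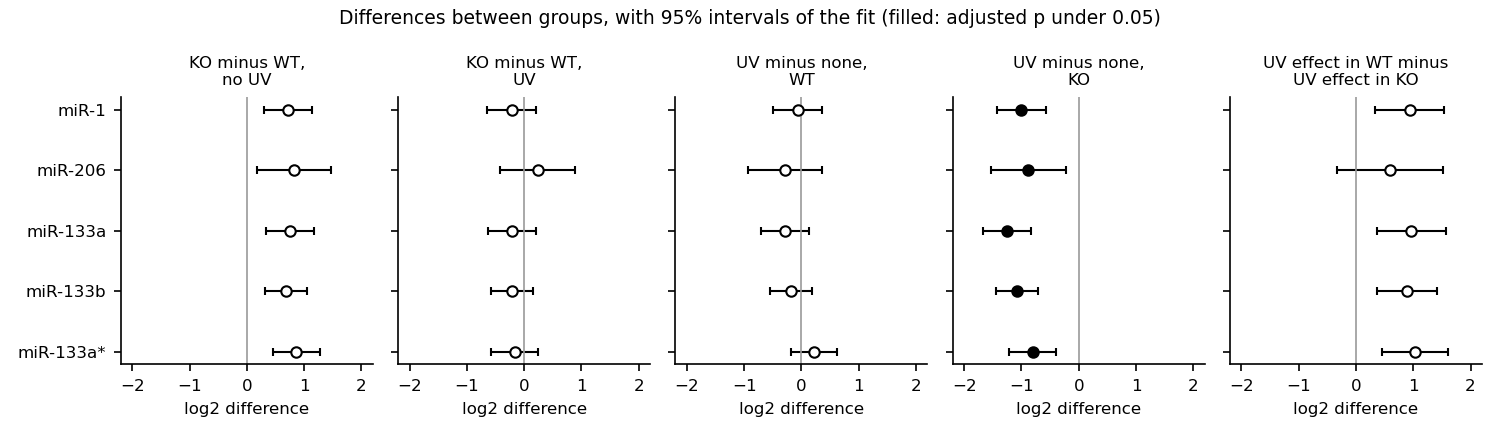
Log2 differences of the 4 muscle miRNAs and of miR-133a* (the other strand of the miR-133a hairpin) in 5 comparisons, with 95% intervals of the limma fit to 16 arrays; filled points have an adjusted p under 0.05. All 5 are filled for UV minus none in KO, from -1.25 for miR-133a to -0.81 for miR-133a*, and none is filled elsewhere.

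Between genotypes without irradiation, the members had positive KO minus WT differences that did not pass the threshold. The log2 difference was 0.71 ± 0.20 for miR-1 (limma adjusted p = 0.0686), 0.83 ± 0.30 for miR-206 (adjusted p = 0.202), 0.75 ± 0.19 for miR-133a (adjusted p = 0.0635) and 0.67 ± 0.17 for miR-133b (adjusted p = 0.0635). In this comparison 0% of the 228 tested miRNAs were called, and 36 of them, the 4 members included, had an unadjusted p under 0.05. The members held places 2 to 5 from the highest difference. The groups of all 4 members overlapped or tied after normalization, and WT no UV replicate 2 was the WT array that reached highest for miR-1, miR-133a and miR-133b. Without that array miR-1 (0.97, limma adjusted p = 0.000522), miR-133a (0.91, adjusted p = 0.00659) and miR-133b (0.86, adjusted p = 0.00158) were called, and miR-206 was not (adjusted p = 0.189). Of the 8 fits with 1 array left out, the other 7 called no member. In the fit without WT no UV replicate 2 the p of miR-1 may be too small, because its normalized KO no UV values had no spread. WT no UV replicate 2 was not among the arrays flagged below as standing apart from their group. miR-1, miR-133a and miR-133b were also called when only the 167 miRNAs detected on all 16 arrays were tested, each at an adjusted p of 0.0406. Without any normalization all 4 were called, at 1.22 to 1.31, while the median of all tested miRNAs stood at 0.52 on that scale, which left 0.70 to 0.79 relative to it. How many of all miRNAs these alternative fits called is not given here, so their calls of members cannot be set against that share.

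In irradiated skin the KO minus WT log2 differences were smaller in size than without UV. They were -0.22 for miR-1 (95% interval of the fit -0.64 to 0.20), 0.23 for miR-206 (-0.42 to 0.88), -0.22 for miR-133a (-0.64 to 0.20) and -0.22 for miR-133b (-0.58 to 0.15), with limma adjusted p between 0.808 and 0.951. None was called, against 2.19% of all tested miRNAs, and no member had an unadjusted p under 0.05. miR-133a was lower on every KO UV array than on every WT UV array (exact permutation p = 0.0286), as were 4.82% of the tested miRNAs. Its 4 normalized KO UV values were 11.42 on 3 arrays and 11.50 on the remaining one, against 11.58 and 11.73 on 2 WT UV arrays each, so that the separation rested on neighbouring ranks. Scaled to the 75th percentile, its probes gave -0.02 (exact permutation p = 0.914) and -0.15 (exact permutation p = 0.2), with overlapping groups.

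The interaction term tested directly whether the UV difference differed between genotypes, as its value in WT less its value in KO. On the log2 scale it was 0.93 ± 0.28 for miR-1 (limma adjusted p = 0.106), 0.59 ± 0.43 for miR-206 (adjusted p = 0.633), 0.97 ± 0.28 for miR-133a (adjusted p = 0.106) and 0.89 ± 0.24 for miR-133b (adjusted p = 0.0862). None was called, against 2.19% of all tested miRNAs, although miR-1, miR-133a and miR-133b had an unadjusted p under 0.05. Permuting genotype within each irradiation state gave unadjusted exact p of 0.0184 for miR-1, 0.000816 for miR-133a, 0.00612 for miR-133b and 0.265 for miR-206. This permutation assumes no genotype difference in either state, so a small p cannot by itself show that the UV difference depends on genotype. It was run for the members only. Without WT no UV replicate 2, limma called miR-1 (1.19, adjusted p = 0.00293), miR-133a (1.12, adjusted p = 0.0154) and miR-133b (1.07, adjusted p = 0.00406). Of the 16 fits with 1 array left out, the other 15 called no member. How many of all miRNAs the fit without WT no UV replicate 2 called is not given here, so its calls of members cannot be set against that share. The p of miR-1 in that fit may also be too small, because its normalized KO no UV values had no spread. The UV comparison in KO shares its KO no UV arrays with the genotype comparison in non-irradiated skin, so the fall in one and the positive difference in the other are not separate evidence.

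**Figure D4:**
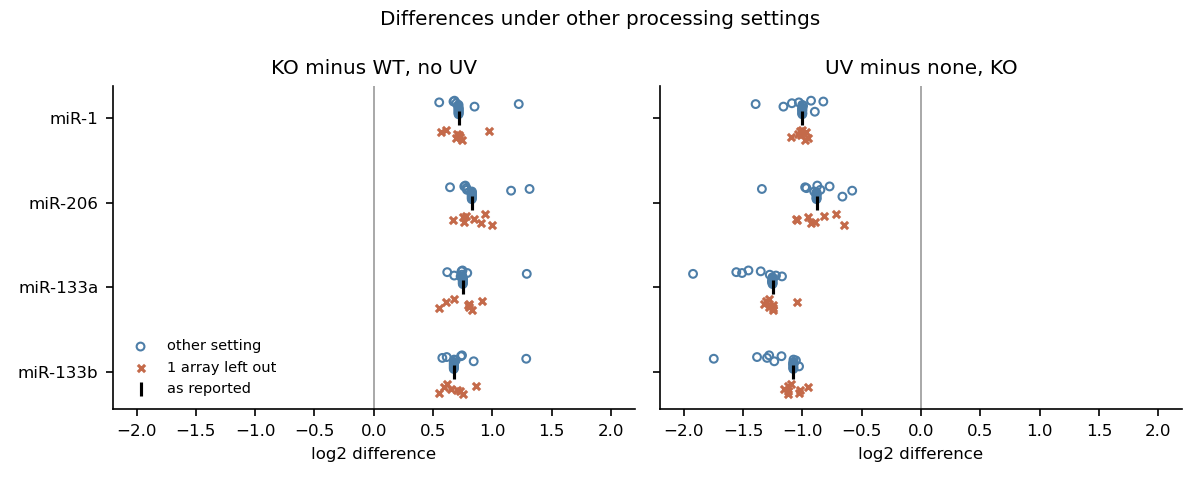
Log2 difference of each member for KO minus WT without UV (left) and UV minus none in KO (right), as reported, under other processing settings and with 1 array left out in turn. Every value keeps its sign, and the values far from the rest on each row include those without normalization, between 1.22 and 1.31 on the left and between -1.92 and -1.34 on the right.

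The order of the group levels was alike for 3 members. On the normalized log2 scale miR-133a had 12.69 ± 0.38 (SD, n = 4) in KO no UV, followed by WT no UV with 11.94 ± 0.41, WT UV with 11.65 ± 0.09 and KO UV with 11.44 ± 0.04. miR-133b had 13.48 ± 0.28, 12.81 ± 0.37, 12.62 ± 0.08 and 12.40 ± 0.15 in the same order. miR-1 also ran in that order, with 14.59, 13.87 ± 0.51, 13.80 ± 0.15 and 13.58 ± 0.21. No pair of neighbours in these 3 orders was called. miR-206 had 10.09 ± 0.43 in KO no UV and 9.27 ± 0.25 in WT no UV, and then KO UV (9.21 ± 0.51) came before WT UV (8.98 ± 0.51), in an order whose middle pair was not compared by a test. The SD of miR-1, miR-133a and miR-133b was wider in non-irradiated than in irradiated WT skin, whereas that of miR-206 was narrower.

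The 2 probes of each member gave similar answers when the arrays were scaled to their 75th percentile, taken over miRNAs that all arrays detected. For UV minus none in KO, the probes gave -1.22 and -0.88 for miR-1, -0.98 and -0.81 for miR-206, -1.58 and -1.44 for miR-133a, and -1.54 and -1.23 for miR-133b. Each of these 8 differences had an exact permutation p of 0.0286. For KO minus WT without UV, the 8 probes ranged from 0.65 to 0.80, and the exact permutation p was 0.0286 for both probes of miR-206. The share of all probes that separated the groups in this way on that scale is not given here. Since the 2 probes of a member read the same miRNA, they are not separate evidence.

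Covariation from array to array within groups was examined for each pair of members. After each array's deviation from its group mean was taken (16 arrays, 6 pairs, permutation test with 100000 resamples within groups), 2 pairs passed a Benjamini-Hochberg adjusted p of 0.05. miR-133a and miR-133b gave Pearson's r = 0.88 (permutation p = 0.00133, adjusted 0.00798) and Spearman's rho = 0.72 (permutation p = 0.00644, adjusted 0.0216). Their probes may each have bound both of these close relatives, so this relation need not be one between separate levels. miR-1 and miR-133b gave r = 0.75 (permutation p = 0.0125, adjusted 0.0376) and rho = 0.68 (permutation p = 0.00721, adjusted 0.0216). miR-1 and miR-133a gave r = 0.63 (permutation p = 0.0311, adjusted 0.0623) and rho = 0.43 (permutation p = 0.172, adjusted 0.344).

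miR-206 did not follow the other members. Its r was 0.09 with miR-1 (permutation p = 0.676), -0.09 with miR-133a (permutation p = 0.735) and -0.13 with miR-133b (permutation p = 0.596), each with an adjusted p of 0.735. The corresponding rho were 0.17, -0.06 and -0.09, with permutation p between 0.549 and 0.811 and an adjusted p of 0.811. This included miR-133b, its neighbour on chromosome 1, whose probes may also have bound miR-133a.

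The relations rested on few arrays. Without the 2 arrays farthest from the median of the first member, r fell to 0.49 for miR-133a and miR-133b (permutation p = 0.0424, adjusted 0.255), where WT no UV replicate 2 and KO no UV replicate 3 were left out. It fell to 0.29 for miR-1 and miR-133b (permutation p = 0.252, adjusted 0.748), where WT no UV replicates 2 and 3 were left out. With single arrays left out, miR-133a and miR-133b passed every time (r from 0.82 to 0.92), whereas the pair of miR-1 and miR-133b no longer passed without any one of the 4 WT no UV arrays, WT UV replicate 4 or KO UV replicates 2 and 3. Its r was 0.34 without WT no UV replicate 2 (permutation adjusted p = 0.296). The pair of miR-1 and miR-133a passed without WT UV replicate 2, 3 or 4. Within the non-irradiated arrays miR-133a and miR-133b gave r = 0.94 (permutation adjusted p = 0.0197), and within the irradiated arrays 0.25 (adjusted p = 0.998). The scaling mattered as well, because ranks leave bright miRNAs few values: scaled to the 75th percentile, r was 0.97 for miR-133a and miR-133b, 0.95 for miR-1 and miR-133a and 0.91 for miR-1 and miR-133b, with permutation adjusted p of 0.0003, 0.00069 and 0.0019. On that scale miR-206 again gave values near 0, from -0.06 to 0.18.

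**Figure D5:**
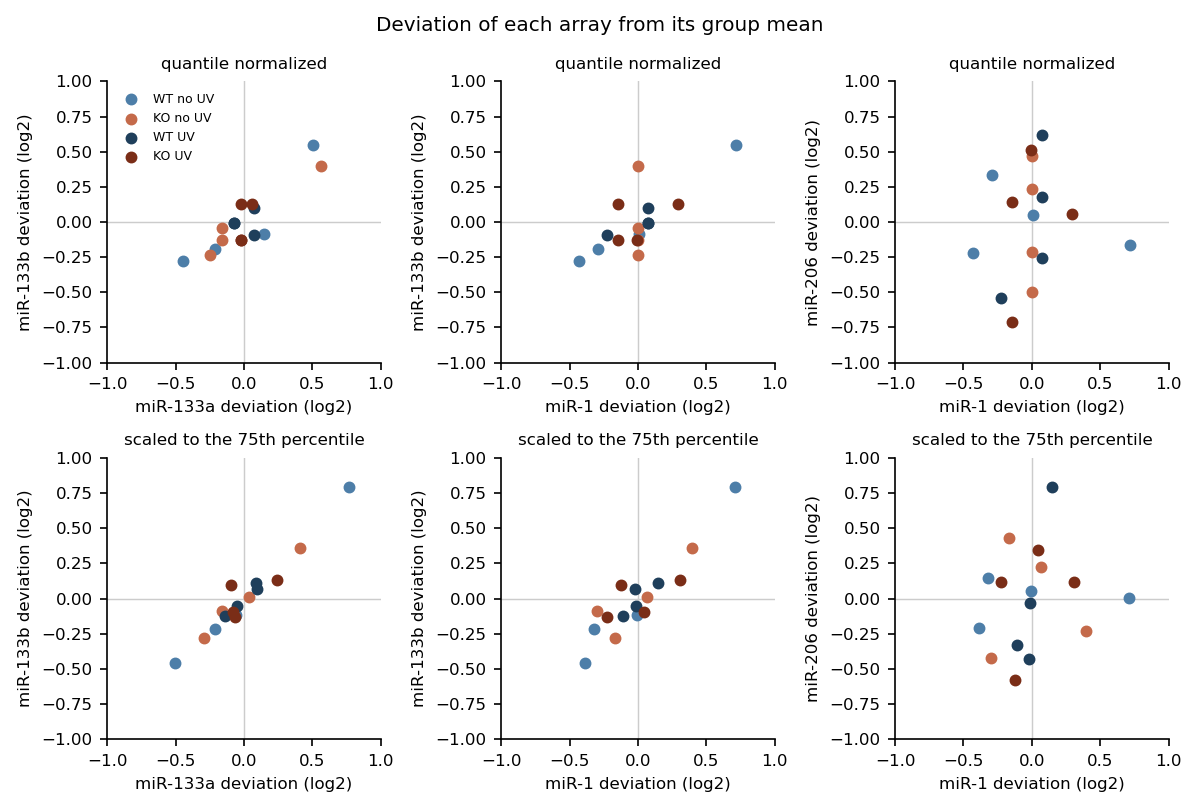
Deviation of each array from its group mean (log2) for miR-133b against miR-133a, miR-133b against miR-1 and miR-206 against miR-1, after quantile normalization (top) and after scaling to the 75th percentile (bottom); points are the 16 arrays, coloured by group. WT no UV replicate 2 lies far to the upper right in the first 2 columns, where r is 0.88 and 0.75 at the top and 0.97 and 0.91 at the bottom, and miR-206 shows no such line.

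Other muscle miRNAs were looked up in a list of the other strands of the member hairpins, the miRNAs of myosin heavy chain genes and miRNAs enriched in striated muscle. miR-133a*, the passenger strand of the miR-133a hairpin, was detected on all 16 arrays and fell with UV in KO skin by 0.81 on the log2 scale (limma adjusted p = 0.0105). Its signals were 414, 458, 534 and 312 units in KO no UV and 158, 194, 139 and 162 in KO UV. Its KO minus WT difference without UV was 0.86 (limma adjusted p = 0.0552) and its UV difference in WT was 0.22 (adjusted p = 0.485).

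miR-208a, miR-208b and miR-499, which lie in introns of myosin heavy chain genes of heart and slow muscle, were detected on none of the 16 arrays. Of the 3 miRNAs enriched in striated muscle, only miR-486 was called, and only for UV in KO skin, where it fell by 0.86 on the log2 scale (limma adjusted p = 0.0135). miR-378 (-0.36, adjusted p = 0.0866) and miR-378* (-0.39, adjusted p = 0.059) had negative differences that were not called in the same limma fit. miR-486 is also abundant in red blood cells and miR-378 in fat. The erythrocyte miRNA miR-451 had a difference of -0.04 for UV in KO skin, with a wide interval of the fit (-0.74 to 0.66). Whether red blood cells or fat had a part in the differences of miR-486 and miR-378 was not tested. Over the 3 miRNAs enriched in striated muscle the median difference was -0.39 for UV in KO and 0.42 for KO minus WT without UV. It was 0 over all tested miRNAs in both.

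By a rule that ranked the 163 other miRNAs detected on all arrays by the correlation of their within-group deviations with the mean of the 4 members, miR-133a* came first, with r = 0.94 over 16 arrays. It was followed by miR-126-3p of blood vessel endothelium (0.84), miR-30a (0.75), miR-338-3p (0.71) and miR-96 (0.61), whereas the median over the 163 was -0.03. These r are descriptions, since all of them share the arrays and the normalization. Scaled to the 75th percentile, miR-133a* still came first at 0.89 and the first 4 were the same miRNAs, but miR-96 dropped to place 15. Their group differences were not all like those of the members: miR-126-3p rose with UV in WT (0.46, limma adjusted p = 0.000599), with a UV difference of 0.01 in KO (adjusted p = 0.991), and miR-96 rose with UV in both genotypes (0.51, adjusted p = 0.0109, and 0.50, adjusted p = 0.013). Scaled to the 75th percentile, the mean log2 level of miR-126-3p was closer between the WT groups, at 10.88 in WT no UV and 11.07 in WT UV.

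Markers of other cell types moved with UV in KO skin too. Both smooth muscle miRNAs fell, miR-145 by 1.66 (limma adjusted p = 0.000265) and miR-143 by 0.79 (adjusted p = 0.0203) on the log2 scale, and both keratinocyte miRNAs rose, miR-203 by 0.59 (adjusted p = 0.0284) and miR-205 by 0.32 (adjusted p = 0.0234). miR-145 was dim, with signals of 158 to 201 units in KO no UV and 27.5 to 61.7 in KO UV before normalization. The latter lay not far above the 19.4 units at which normalized signals were floored, on the slide with the higher background. The summed normalized signal of the smooth muscle pair was 726 to 1000 units in KO no UV and 384 to 737 in KO UV, and that of the keratinocyte pair was 17460 to 22714 and 22714 to 36820. For the 4 members the same sum was 40655 to 50330 in KO no UV, 19464 to 24489 in KO UV, 20453 to 41168 in WT no UV and 21899 to 25985 in WT UV. The highest keratinocyte sum was that of KO UV replicate 4, where miR-203 had rank 1 and so 24584 normalized units, against 15677 before normalization. The mean of miR-203 before normalization was 13800 units in KO no UV and 13173 in KO UV. Scaled to the 75th percentile, its mean log2 level was 13.44 and 13.85.

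Of the 4 leukocyte miRNAs, miR-150 alone fell in KO skin with UV (-0.56, limma adjusted p = 0.0169), and the list summed to 2285 to 3547 units without UV and 2324 to 3047 with it. Of the 3 fibroblast and vessel miRNAs on the array, miR-214 rose (0.32, limma adjusted p = 0.036), with sums of 2881 to 3319 and 3038 to 3107. Of the 3 adipocyte miRNAs, which include miR-378, none was called, with sums of 1357 to 1678 and 1172 to 1670. In the erythrocyte pair miR-451 was not called and miR-144 was not tested, and their sums were 1235 to 1715 and 700.3 to 2031. In WT skin miR-145 (-0.93, limma adjusted p = 0.00963) and miR-150 (-1.05, adjusted p = 0.000329) fell with UV, where no member was called. For KO minus WT without UV no marker was called, and the median log2 difference was 0.42 in the smooth muscle pair, 0.33 in the adipocyte list, and -0.32 in the leukocyte list. The fibroblast and vessel list went both ways, with 0.33 for the endothelial miR-126-3p (limma adjusted p = 0.0552), -0.30 for miR-199a-5p (adjusted p = 0.288) and -0.34 for miR-214 (adjusted p = 0.119). The interaction of miR-126-3p was called (0.45, limma adjusted p = 0.0345), with a UV difference of 0.46 in WT and 0.01 in KO. Its 4 KO UV arrays shared a rank and so a normalized value, though their signals ran from 1823 to 2132 units. The spread in the fit, and with it this p, may therefore be too small. Scaled to the 75th percentile, its mean log2 level was 10.88 in WT no UV, 11.07 in WT UV, 11.08 in KO no UV and 11.08 in KO UV. Its interaction on that scale is not given here. In the fibroblast and vessel list miR-199a-5p (-0.08, limma adjusted p = 0.916) and miR-214 (-0.27, adjusted p = 0.498) had negative interactions that were not called. The summed signal of the smooth muscle pair was 542 to 968 units in WT no UV. The part of these cell types in the differences of the muscle miRNAs was not tested.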

How the data were processed

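The members, the muscle list and the cell type lists were chosen with earlier results of these data known. Total RNA (100 ng per sample) was labelled with Cy3 and hybridised to 1 array per sample, and per the file headers Agilent Feature Extraction 9.5.3.1 read the scans. In the deposited scanner files each miRNA has a background-subtracted total gene signal, an intensity on a linear scale that sums over its spots, and a detection call, with no normalization between arrays. The authors' series table gives log2 values after invariant-set and quantile normalization, and served only as an alternative.

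Signals were quantile normalized over the 16 arrays, floored at 19.4 units (4.28 on the log2 scale; the median of the arrays' 5th percentile among detected miRNAs) and log2 transformed, which understates changes of dim miRNAs. Groups came from the titles. Group means were fitted with limma 3.58.1 in R 4.3.3 (12 residual and 0.802 prior degrees of freedom) after tests on simulated data. Correlations used numpy 2.4.6, and exact tests were two-sided. The miRNAs named were the members, the muscle and marker lists, and the 5 whose deviations correlated best with the members' mean.

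What a replicate number marks is not given in the sources used here. Deviations of same-numbered arrays over 228 miRNAs had correlations of 0.132 to 0.320 for WT no UV and WT UV, and of 0.011 to 0.320 for WT UV and KO UV. They ran from -0.299 to 0.220 for WT no UV and KO no UV, and from -0.347 to 0.190 for KO no UV and KO UV. Arrays with different numbers were not compared, so these values do not show a pairing. Alternatives covered scaling, background correction, filter, floor, model and single arrays left out. Ratios within arrays, single probes, differences relative to the median and likeness under other scalings were added after the data were seen. The number of arrays limits the precision.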

Additional observations from a re-analysis of the deposited data

Results flagged for a closer look

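Among the 16 combinations of member and group, 3 had an array standing apart from the other 3 of its group on the normalized scale, and chance flags about 1 in 20. For miR-1 in WT UV, replicate 4 lay apart with a gap of 1 times the range of the group, because the other 3 arrays held the same rank and so the same value. The same held for miR-133a in KO UV, with replicate 2 apart and a gap of 1 times the range. For miR-133a in KO no UV, replicate 3 lay above the others with a gap of 0.886 times the range. Scaled to the 75th percentile, these gaps were 0.636, 0.914 and 0.526 times the range, so that only that of miR-133a in KO UV was still above the limit for groups of 4.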

How the results depend on the processing

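For UV minus none in KO, between 3 and 4 members were called under all 17 other settings and with each of 8 arrays left out, and every difference kept its sign, but miR-206 lost its call in 8 of the 17. For KO minus WT without UV, every difference was positive throughout, but the number of members called was 4 without normalization, 3 with the authors' series table, 3 among miRNAs detected on all 16 arrays and 1 with normexp, and ranged from 0 to 3 with 1 array left out. Without normalization the median over all tested miRNAs was 0.52 in this comparison. The counts of members in this section are not set beside the share of all tested miRNAs called under the same setting. They therefore show how firm the members' calls were, and not whether other miRNAs were called as often. For KO minus WT with UV, 1 member (miR-133a) passed the exact permutation test without adjustment. For UV minus none in WT, 2 were called with the invariant set and 2 with quantiles within each slide, a setting that puts the slides on no common scale. For the interaction, 4 were called without normalization, where the median over all tested miRNAs was 0.77, and the count ranged from 0 to 3 with 1 array left out. The exact permutation test without adjustment passed 3, but it assumes no genotype difference in either irradiation state. No difference that changed sign was called: without normalization, miR-206 gave -0.0896 for KO minus WT with UV and 0.061 for UV minus none in WT, and miR-1 gave 0.25 for the latter. Normexp gave 0.48 for miR-206 in that comparison, and leaving out 1 array moved that of miR-1 from -0.21 to 0.17. Causes were not tested. Of the 6 member pairs, 2 passed as reported, 2 with Spearman's rho, 3 when scaled to the 75th percentile and 3 without normalization. Fewer passed in other settings, with 1 in the authors' series table and 0 without the 2 farthest arrays. On the non-irradiated arrays alone 1 passed, and on the irradiated arrays alone 0. With 1 array left out, 1 to 3 passed. With the replicate number as a block, 4 members were called for UV minus none in KO (adjusted p between 0.00524 and 0.0107) and 0 in each other comparison, so the block changed no call. Testing all 577 miRNAs without a filter put most of them at the floor, where limma warned that its moderation is not reliable. The setting with only the compared arrays could not be fitted to the interaction, which uses all 16.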

Other observations

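Ratios of 2 members on the same array need no normalization between arrays, and they were looked at after the data were seen, by 24 tests (exact permutation, two-sided, 4 arrays against 4). The log2 ratio of miR-1 to miR-133a was higher by 0.44 in irradiated than in non-irradiated WT skin and by 0.53 in KO skin, and in both genotypes the 4 irradiated arrays lay above the 4 non-irradiated ones. That of miR-1 to miR-133b was higher by 0.36 in WT and by 0.35 in KO, again with no overlap. Each of these 4 tests gave an exact p of 0.0286, which 4 against 4 arrays cannot go below, and an adjusted p of 0.137 over the 24 tests, so none passed the correction. The ratio of miR-133a to miR-133b differed by -0.08 in WT (exact p = 0.0286, adjusted 0.137) and by -0.17 in KO (exact p = 0.0571, adjusted 0.229). Between genotypes on the same slide no ratio of 2 members had groups that did not overlap, and the 3 ratios among miR-1, miR-133a and miR-133b differed there by -0.09 to 0.02. Irradiation and slide cannot be told apart in the other comparisons.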
